A study of Homo sapiens with 58 samples.

Results

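HuR binding next to a nuclear and next to a cytoplasmic peroxidase was compared in arsenite-treated Huh-7.5 cells, an established human hepatocellular carcinoma line. The comparison rests on 8 of the 58 libraries of the series, 4 from the APEX-NLS line and 4 from the APEX-NES line, chosen by line, capture step and treatment. APEX is an engineered ascorbate peroxidase that tags neighbouring proteins with biotin phenol. In the APEX-NLS line it carries a nuclear localization signal, and in the APEX-NES line a nuclear export signal. Both lines received 0.5 mM sodium arsenite for 45 min, 0.5 mM biotin phenol for 30 min and 1 mM hydrogen peroxide for 1 min before crosslinking with 254 nm UV at 400 and 200 mJ/cm2. HuR was immunoprecipitated with the 3A2 antibody and the biotinylated part was then captured on streptavidin, an approach called colocalization CLIP. Replicates 1 and 2 of each line carry the library prefix JL0388 and replicates 3 and 4 the prefix JL1024. The labels name neither the promoter of the APEX transgenes nor whether a line is 1 clone.

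HuR, encoded by ELAVL1, is an RNA-binding protein that binds uridine-rich and AU-rich stretches in introns and 3' untranslated regions (3'UTRs). It is mostly nuclear, shuttles to the cytoplasm, and is known there for stabilizing mRNAs and for altering their translation. Arsenite is an oxidative stressor that halts translation initiation and drives many mRNAs and their binding proteins, HuR among them, into stress granules. Introns are present mainly in unspliced nuclear RNA, whereas 3'UTRs are present both in precursor RNA and in exported mRNA.

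The deposited values are CLIP tags per peak divided by a library total, given here as CPM (the value times 1000000). NLS libraries held 12474 to 35859 tags in peaks and NES libraries 4837 to 21738. These were 6.59% to 17.3% of the NLS totals and 3.85% to 12.6% of the NES totals. Within each library set the NES libraries had the lower percentage, so scaling to the library total and scaling to the tags in peaks give different levels. Most peaks were hit sparsely: of 83077 peaks with a tag in the 8 libraries, 60221 held 1 tag. Both library sets differed in content, with 0.160% to 0.795% of tags in the 4 RefSeq copies of the ribosomal RNA gene RNA45SN in JL0388 and 5.61% to 10.0% in JL1024. Replicates 1 and 2 of each line agree within sampling noise. Their chi-square per degree of freedom was 0.975 over 316 features in NLS and 0.988 over 54 features in NES, against 1.59 and 5.30 for replicates 3 and 4 thinned to the same depth. Replicates 1 and 2 were therefore counted as 1 sample in every mean ± SD (n = 3), although the model fits kept all 8 libraries. The labels do not say whether replicates are separate cultures, so p-values measure the spread between these libraries. Of 20 hepatocyte markers, 16 had a peak and 6 genes could be tested, AFP among them with tags in all 8 libraries. Of 15 markers of blood, endothelial, mesenchymal and biliary cells, 7 had a peak and 1 could be tested.

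Intronic RNA made up more of the HuR tags near the nuclear peroxidase. The intron share of the tags in peaks was 51.3%, 50.5%, 31.4% and 32.2% in NLS replicates 1 to 4, and 25.7%, 26.7%, 13.1% and 18.99% in NES replicates 1 to 4. NLS lay above NES in both library sets without overlap. Counting error was far smaller than these gaps, since the widest interval was 24.5% to 26.99% (95% Wilson) for NES replicate 1. The means were 38.2% ± 11.02 for NLS and 19.5% ± 6.57 for NES (SD, n = 3), a spread that is mostly the difference between library sets. Over the 8 libraries the difference was 20.2 percentage points (exact permutation test within library set, two-sided p = 0.0556, the smallest that 36 arrangements can give; adjusted p = 0.37 over 10 classes). These arrangements treat the JL0388 replicates as separate samples. With each such pair counted once the difference was 18.7 points and the exact permutation p 0.167. It was 24.7 points in JL0388 and 15.7 points in JL1024. The inputs, which are HuR immunoprecipitates of the same lines without streptavidin capture, showed no such gap: 42.6% and 30.3% for NLS and 44.0% and 34.2% for NES.

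The 3'UTR share separated the lines in 1 library set only. It was 13.1%, 13.1%, 13.7% and 15.7% in NLS replicates 1 to 4 and 44.8%, 42.5%, 11.1% and 15.5% in NES replicates 1 to 4. In JL0388 the NES libraries held 30.5 points more, while in JL1024 the values overlapped and NLS was 1.39 points higher on average (exact permutation p = 0.278 over both sets). The inputs held 24.1% and 18.1% for NLS and 22.96% and 19.5% for NES. In the JL1024 NES libraries the tags lay instead in the classes ncRNA (30.4% and 24.2%), unannotated (19.7% and 19.3%), TE (11.1% and 11.3%) and snoRNA (6.34% and 2.66%), class names being those of the authors' table. NLS replicates 3 and 4 held 24.9% and 22.6% ncRNA, 15.3% and 15.04% unannotated, 5.57% and 5.65% TE and 2.66% and 2.13% snoRNA.

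**Figure D1:**
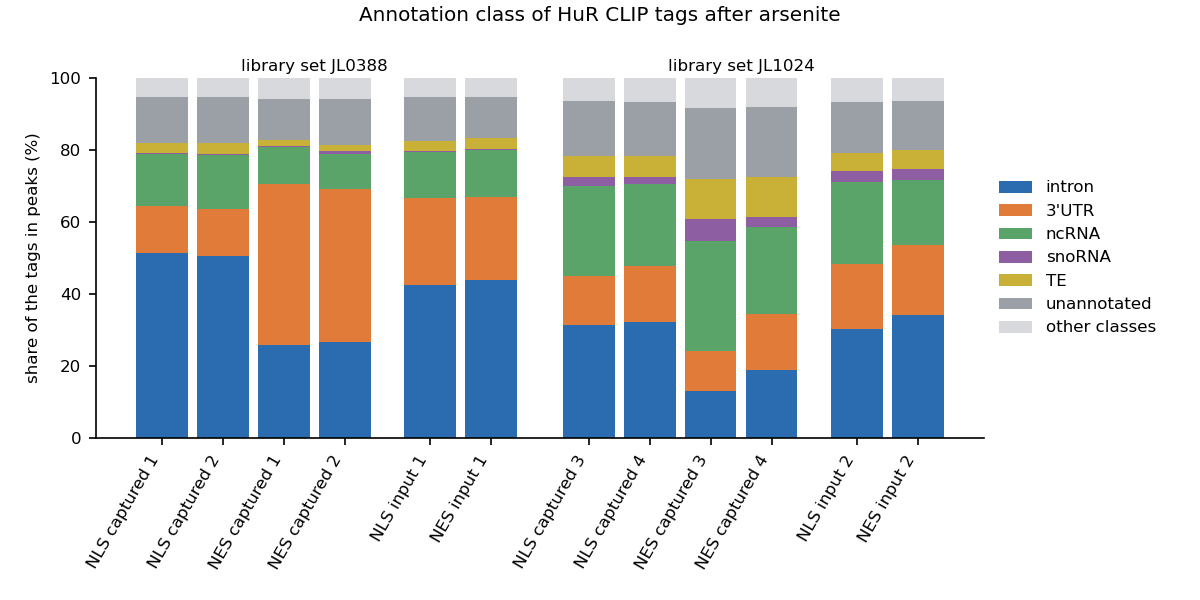
Stacked bars give the percentage of each library's tags in peaks by annotation class, for captured and input arsenite libraries of both lines, grouped by library set. The intron part (blue) of captured NES libraries is 13.1% to 26.7% against 31.4% to 51.3% in captured NLS libraries, and the 3'UTR part (orange) is 44.8% and 42.5% in NES replicates 1 and 2 against 11.1% to 15.7% in the other captured libraries.

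Because ribosomal, TE and snoRNA tags weigh differently on the library sets, introns were also set against 3'UTRs alone, a ratio that no scaling of the libraries changes. Introns made up 79.7%, 79.4%, 69.7% and 67.3% of these tags in NLS replicates 1 to 4 and 36.5%, 38.6%, 54.2% and 55.1% in NES replicates 1 to 4. All 4 NLS libraries lay above all 4 NES libraries. The means were 72.2% ± 6.49 for NLS and 49.0% ± 9.89 for NES (SD, n = 3), and the difference was 42.0 points in JL0388 and 13.8 points in JL1024 (exact permutation p = 0.0556 within library set, and 0.167 with the JL0388 pairs counted once). In inputs the fraction was 63.9% and 62.6% for NLS and 65.7% and 63.7% for NES, between both captured groups. Scaled to the library total, NLS replicates 1 and 2 held 88667 and 80768 CPM of intron tags against 32545 and 22936 CPM in NES, and 22593 and 21009 CPM of 3'UTR tags against 56646 and 36437 CPM. In JL1024 both classes were lower in NES: introns fell from 20719 and 22398 CPM to 5281 and 7311 CPM, and 3'UTRs from 9007 and 10903 CPM to 4463 and 5951 CPM.

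How the intron difference varied with the number of tags in a peak depended on which libraries ranked the peaks. Among the 997 peaks with at least 10 tags in the 8 libraries, which held 24.5% of the tags, the intron fraction of intron and 3'UTR tags was 3.11 points lower in NLS than in NES (exact permutation p = 0.722), with a difference of 3.54 points in JL0388 and -9.76 points in JL1024. Since that grouping uses the compared libraries themselves, peaks were also grouped by their tags in the 12 nuclear and cytoplasmic fraction libraries of the series. In peaks with 0 to 4 such tags NLS exceeded NES by 14.96 points, with 5 to 19 by 21.6 points, and with 20 to 99 by 27.6 points, without overlap within either set (exact permutation p = 0.0556 for each). In peaks with 100 or more the difference was 10.6 points, 19.2 in JL0388 and 2.07 in JL1024, where the lines overlapped (exact permutation p = 0.111). The gap was thus widest in peaks with 20 to 99 such tags and kept its direction in all 4 groups. In that last group introns were a minor part in every library, from 9.07% in NES replicate 1 to 29.6% in NLS replicate 2.

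**Figure D2:**
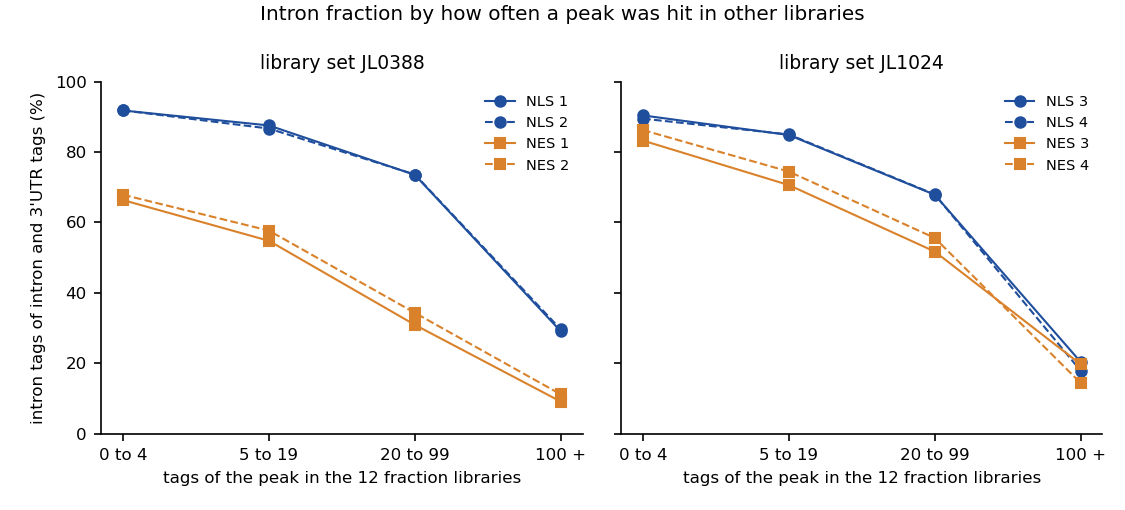
Each line is 1 captured arsenite library, with the intron percentage of its intron and 3'UTR tags on the y axis and peaks grouped on the x axis by their tags in the 12 fraction libraries. NLS (circles) lies above NES (squares) in the first 3 groups of both library sets, and in JL1024 the lines meet in peaks with 100 or more tags.

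Peaks were then summed per gene and annotation class, giving 3704 features that had a tag in at least 4 of the 8 libraries. With limma and the library set as covariate, 279 features (7.53%) passed an adjusted p of 0.05: 276 were higher in NLS (7.45%) and 3 higher in NES (0.081%). Introns gave 236 of the 276 and the ncRNA class 38, with NABP1 and TLCD4 as the only 3'UTRs. The median log2 difference, NLS minus NES on the scale of log2(CPM + 3.68), was 0.72 over all features, 1.26 over 1897 introns, 0.79 over 350 ncRNA features and -0.19 over 1170 3'UTRs. With a pseudocount 4 times smaller or larger the median was 1.32 or 0.30 over all features, 2.02 or 0.57 over introns and -0.11 or -0.16 over 3'UTRs. For 220 features, 174 of them introns, no NES library had a tag. These met the filter through NLS alone, and 39 of the 276 were among them. With such features set at the value that 3 tags over the NES libraries, pooled across library sets, would give, the medians were 0.71 over all features and 1.22 over introns. Introns that rose near NLS were in longer genes than the others (median 169 kb against 114 kb of the RefSeq gene) and collected more tags (median 43.5 against 12), which bears on which features could be called.

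The number of calls depended on the scaling, on every NLS library and on how the JL0388 pairs were counted. With each such pair counted once limma called 179 of 4991 features, 178 of them higher in NLS. Scaled to the tags in peaks, limma called 0 features (smallest adjusted p = 0.0616; 812 at an unadjusted p under 0.05, 680 of them higher in NLS), and it called 0 when any 1 of the 4 NLS libraries was left out. With edgeR's quasi-likelihood test on recovered whole tags and TMM normalization, 103 features were higher in NLS (2.78%) and 14 higher in NES (0.378%), all 103 among the 276 (781, 21.1%, at an unadjusted p under 0.05), and DESeq2 called 105 (2.83%) and 15, or 120 in all (3.24%; 373, 10.1%, at an unadjusted p under 0.05). On the library total edgeR called 363 (9.8%; 970, 26.2%, at an unadjusted p under 0.05), 354 of them higher in NLS (9.56%). Scaling to the tags in peaks moved the median of all features from 0.72 to 0.35, of introns to 0.81 and of 3'UTRs to -0.41. Below, "rose near NLS" and "rose near NES" refer to the limma fit on CPM of the library total.

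Among the introns higher near NLS, ARHGAP5 and PLCB1 stood first by p. ARHGAP5 encodes a GTPase-activating protein. Its introns (235 peaks) held 818, 914, 176 and 154 CPM in NLS replicates 1 to 4 and 209, 144, 20.7 and 35.4 CPM in NES replicates 1 to 4. NLS was higher in both sets, with means of 399 ± 405 and 77.6 ± 86.1 CPM (SD, n = 3), where the SD again spans the library sets. The log2 difference was 2.37 ± 0.37 (SE; limma adjusted p = 0.00212), 2.29 in JL0388 and 2.45 in JL1024. These tags were spread out, with only 3.28% in the peak that held most (GRCh38, chr14:32086715-32086735, plus strand). PLCB1, a phospholipase C that acts downstream of G protein-coupled receptors, held 721, 490.3, 117 and 119 CPM in NLS and 209, 78.7, 16.6 and 7.08 CPM in NES (log2 2.61 ± 0.44, SE; limma adjusted p = 0.00343).

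Further introns followed the same pattern. STT3B, a catalytic subunit of the oligosaccharyltransferase, held 250, 152, 49.7 and 37.7 CPM in NLS and 26.1, 13.1, 4.14 and 5.31 CPM in NES, the latter from 1 to 3 tags each. ENAH, an actin regulator, had a log2 difference of 2.72 ± 0.52 and KDM2A, a histone lysine demethylase, of 2.48 ± 0.48 (SE; limma adjusted p = 0.00828 and 0.00857). GRIK2 and CNTNAP2 are neuronal genes with very long introns, a glutamate receptor subunit and a cell adhesion protein. GRIK2 differed by 2.23 ± 0.43 and CNTNAP2 by 3.37 ± 0.67 (limma adjusted p = 0.00828 and 0.00999), and CNTNAP2 had no tag in NES replicates 2 and 3. MECOM, a zinc finger transcription factor, differed by 3.16 ± 0.63 (limma adjusted p = 0.00999) on 0, 1, 1 and 1 NES tags.

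MALAT1, a long nuclear RNA of nuclear speckles, rose near NLS. It held 1345, 1137, 493 and 595 CPM in NLS and 627, 341, 45.6 and 136 CPM in NES. NLS exceeded NES within each set, by 1.41 in JL0388 and 2.72 in JL1024 on the log2 scale (2.06 ± 0.37 in the fit, SE; limma adjusted p = 0.00639). One peak, chr11:65501022-65501042 on the plus strand of GRCh38, held 54.9% of its tags: 38, 103, 167 and 138 in NLS and 13, 10, 5 and 55 in NES. RefSeq also places TALAM1, the antisense gene, at that peak, and whether the counting used strand is not given in the sources used here. LINC02109 and LINC02476, long intergenic RNAs of unknown role, rose near NLS by 2.46 ± 0.45 and 1.80 ± 0.35 (SE; limma adjusted p = 0.00639 and 0.00857). LINC02476 was hit in 379 peaks, with 943, 1288, 235 and 267 CPM in NLS and 549, 262, 64.2 and 49.6 CPM in NES.

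The ncRNA feature that the table names CCDC200 holds spliceosomal RNA. All 14 of its peaks, between positions 43233799 and 43300132 of chromosome 17, lie within 13 RefSeq snRNA genes, RNU2-1 among them, which encode copies of U2, the small nuclear RNA that pairs with the branch site. It held 55.5, 66.9, 856 and 717 CPM in NLS and 0, 0, 159 and 260.3 CPM in NES (log2 3.03 ± 0.48, SE; limma adjusted p = 0.00212; edgeR TMM adjusted p = 0.124). Both lines held more of it in JL1024, and near-identical copies may share these tags. RNU1-1, a U1 gene, also rose near NLS (log2 2.21 ± 0.68, SE; limma adjusted p = 0.0462). It was the 1 of 64 tested snRNA and 7SK features that limma called, where 10.9% of all ncRNA features were called, and their median was 0.24. edgeR and DESeq2 called 0 of the 64 (RNU1-1 edgeR TMM adjusted p = 0.529; limma 3 of the 64 at an unadjusted p under 0.05).

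Near the cytoplasmic peroxidase 3 features were higher in the fit of all 8 libraries. With the JL0388 pairs counted once none of the 3 passed (limma adjusted p = 0.0911 for CDC42, 0.0692 for EIF2S3 and 0.10 for KDM4C), whereas edgeR and DESeq2 called all 3. CDC42 encodes a small GTPase that organizes actin and polarity. Its 3'UTR held 27.7, 13.4, 26.8 and 14.5 CPM in NLS and 183, 118, 53.8 and 33.6 CPM in NES, so that all 4 NES libraries exceeded all 4 NLS libraries. The log2 difference was -1.84 ± 0.53 (SE; limma adjusted p = 0.0345), and 94.1% of the tags lay in 1 peak (chr1:22091811-22091831, plus strand). EIF2S3 encodes the gamma subunit of the initiation factor that carries the initiator tRNA. Its 3'UTR held 13.9, 8.92, 28.7 and 11.6 CPM in NLS and 131, 39.4, 53.8 and 54.9 CPM in NES (log2 -1.87 ± 0.55, SE; limma adjusted p = 0.0383). All NES values again lay above all NLS values, and 89.7% of the tags fell in chrX:24076942-24076962 (plus strand). KDM4C, a histone demethylase, was the exception among introns, with 13.9, 53.5, 45.9 and 37.7 CPM in NLS and 288, 302, 62.1 and 63.7 CPM in NES (log2 -1.90 ± 0.53, SE; limma adjusted p = 0.0319). A single peak (chr9:6835711-6835731, plus strand) held 78.7% of the KDM4C tags, unlike the spread-out introns near NLS.

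Of the 3704 features, 23 (0.621%) lay higher in NES within both sets and 906 (24.5%) lower. The 9 of them next in order of p did not pass the limma fit. TOMM22, the receptor of the outer mitochondrial membrane import complex, held 0, 0, 13.4 and 17.4 CPM in NLS and 26.1, 91.8, 18.6 and 28.3 CPM in NES in its 3'UTR (limma adjusted p = 0.0542; edgeR TMM adjusted p = 0.0303). The 3'UTRs of KHSRP and IGF2BP3, which encode RNA-binding proteins that act on mRNA decay and translation, differed by -2.18 and -2.05 (limma adjusted p = 0.0542 and 0.0543), and IGF2BP3 passed in edgeR on the library total and with TMM (adjusted p = 0.0186 and 0.0295). IGF2BP3 had no tag in any NLS library and 1, 3, 1 and 2 tags in NES, so it entered the test through NES alone, which favours a call in that direction. Pooled over both library sets it was 2.34-fold higher in NES, counting 3 tags over the NLS libraries as the floor. CPD, SERPINA1 and SETP4 held 1 to 4 tags in each NES library, and the CEP112 intron differed by -1.58 (limma adjusted p = 0.0895; edgeR TMM adjusted p = 0.0187; DESeq2 adjusted p = 0.0266). The POTEM 3'UTR passed in edgeR on the library total (adjusted p = 0.0361) but not with TMM (edgeR adjusted p = 0.0518). POTEM and POTEJ carry near-copies of the ACTB sequence, so their 3'UTR tags cannot be assigned with certainty.

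ACTB itself, a known HuR target encoding cytoplasmic actin, split the library sets. Its 3'UTR held 55.5, 49.0, 162 and 258 CPM in NLS and 654, 354, 169.8 and 197 CPM in NES. The log2 difference was -3.12 in JL0388 and 0.16 in JL1024, and the fit over both gave -1.48 ± 0.49 (SE; limma adjusted p = 0.0543; edgeR TMM adjusted p = 0.0231). The 3'UTR of ELAVL1, the HuR mRNA itself, held 13.9, 17.8, 9.55 and 5.81 CPM in NLS and 78.4, 39.4, 0 and 3.54 CPM in NES. That of G3BP1, the stress granule nucleator, held 41.6, 31.2, 9.55 and 11.6 CPM in NLS and 157, 91.8, 4.14 and 1.77 CPM in NES. For both, NES was the higher line in JL0388 and the lower in JL1024, and the fits gave -0.25 ± 0.68 and -0.26 ± 0.61 (SE, limma adjusted p = 0.84 and 0.815). These values rest on few tags, since 1 tag was 4.46 to 26.1 CPM in the JL0388 libraries and 1.77 to 2.90 CPM in JL1024.

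**Figure D3:**
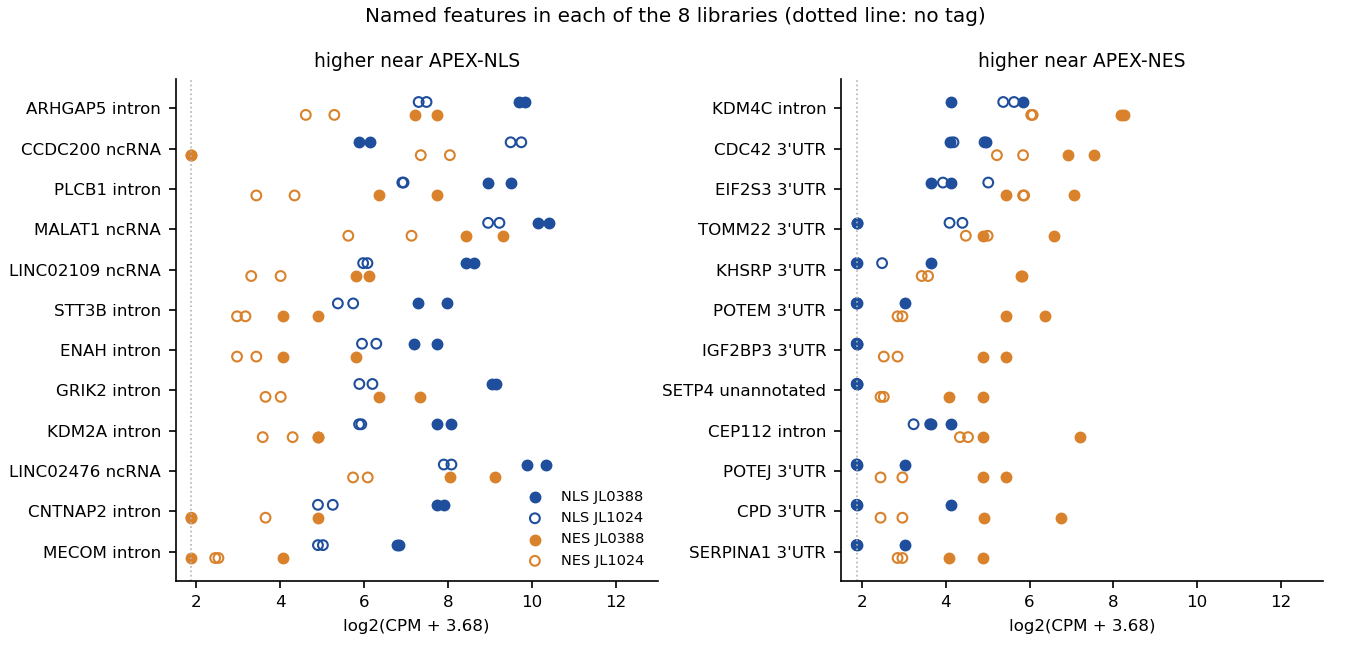
Points are the 8 captured arsenite libraries for the 12 features named in each direction, on the log2(CPM + 3.68) scale, with filled points for JL0388 and open points for JL1024. Features were named only where the lines lay apart within both sets. By that rule blue NLS points lie to the right of orange NES points within each set on the left panel. The reverse holds on the right panel, where many NLS points sit at no tag.

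Gene lists were read by class, since the medians of introns and 3'UTRs differed over all features; the difference between classes was not tested within a list. Among genes for HNRNP and SRSF splicing proteins, 5 of 12 tested introns rose near NLS (HNRNPC, HNRNPA2B1, HNRNPH1, SRSF11 and TRA2A) while limma, edgeR and DESeq2 called 0 of 25 tested 3'UTRs (limma 2 at an unadjusted p under 0.05), with medians of 1.63 and -0.02. HNRNPC introns held 125, 89.2, 17.2 and 17.4 CPM in NLS and 26.1, 0, 0 and 0 CPM in NES (log2 2.95 ± 0.68, SE; limma adjusted p = 0.0114). Over all features tested, 12.5% of introns and 0.342% of 3'UTRs were called, so 0 calls among so few 3'UTRs is near the background. Of the 17 calls among members of any list, 13 passed in edgeR on the library total, 7 with TMM, 4 in DESeq2, which gave no adjusted p for 6, and 8 with the JL0388 pairs counted once. HNRNPC was the 1 of its 5 introns to pass in all of these. For genes of stress granule proteins, 2 of 11 introns rose near NLS and limma, edgeR and DESeq2 called 0 of 14 3'UTRs (limma 1 at an unadjusted p under 0.05), with medians of 1.48 and -0.69. The 2 were NUFIP2, a partner of FMRP, with 22 NLS tags, and UBAP2L, which helps to nucleate stress granules, with 29. Neither had a tag in NES, so both entered the test through their NLS tags alone, which favours a call in that direction. With tags pooled over both library sets they were 7.32-fold and 9.65-fold higher than a floor of 3 NES tags. Pooling ignores the different depth of the sets, so these values are not bounds within a set.

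In 3 further lists, of genes for AU-rich element binding proteins, translation factors and zinc fingers, the share of introns called was near that over all introns. Of known HuR target mRNAs, limma called 0 of 9 3'UTRs and 0 of 4 introns, with medians of -0.25 and 1.35 and 2 of each at an unadjusted p under 0.05. The ACTB 3'UTR of this list passed in edgeR TMM and in DESeq2 (adjusted p = 0.0231 and 0.00626). Genes for proteins that bind AU-rich elements gave 1 of 8 introns, IGF2BP2 (log2 2.76 ± 0.77, SE; limma adjusted p = 0.0321), in which NES replicate 4 alone held 17 tags and the other NES replicates 0. The IGF2BP2 call was lost in edgeR, in DESeq2 and with pairs counted once (limma adjusted p = 0.0911). Among the 11 3'UTRs of this list edgeR called 1, lower in NLS, both on the library total and with TMM. Translation factor genes gave 1 of 7 introns near NLS, EIF4G3 (log2 2.06 ± 0.52, SE; limma adjusted p = 0.0186, or 0.0698 with pairs counted once; edgeR TMM adjusted p = 0.118; DESeq2 adjusted p = 0.0894), and 1 of 7 3'UTRs near NES, EIF2S3. Zinc finger genes gave 4 of 39 introns, ZNF292, ZNF516, ZNF714 and ZNF91. Limma called 0 of 13 features of heat shock and oxidative stress genes, 0 of 18 of cytosolic ribosomal protein genes, 0 of 18 of mitochondrially encoded genes and 0 of 10 of hepatocyte markers, each list with 2 features at an unadjusted p under 0.05. With 7.53% of all features called, 0 calls in lists of this size is near the background. edgeR and DESeq2 called 0 of the first 2 lists. MT-RNR2, the large mitochondrial ribosomal RNA, passed as higher in NLS in edgeR on the library total and in DESeq2 (adjusted p = 0.0107 and 0.0391), and the AFP coding sequence as lower in DESeq2 (adjusted p = 0.0399). No signal recognition particle RNA feature had enough tags to be tested.

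Of 8 tested features in the list of nuclear long RNAs, all 8 had a positive difference on the library total, as did 78.0% of all ncRNA features. Their median was 1.32. GAS5 turned negative scaled to the tags in peaks (-0.21), with edgeR TMM (-0.17) and in DESeq2 (-0.05). The 7 in the ncRNA class had a median of 1.83 beside 0.79 for all ncRNA features. MALAT1 and KCNQ1OT1 passed in the limma fit (KCNQ1OT1 adjusted p = 0.0461, or 0.0795 with pairs counted once), where 10.9% of all ncRNA features did. KCNQ1OT1 held 17 NLS tags and 0 NES tags, so it entered the test through NLS alone. Pooled over both library sets this was 5.66-fold against a floor of 3 NES tags, which is not a bound within a set. Only MALAT1 and KCNQ1OT1 lay apart in both library sets. NEAT1, the scaffold of paraspeckles, held 111, 107, 26.8 and 23.2 CPM in NLS and 131, 78.7, 6.21 and 7.08 CPM in NES (log2 0.78 ± 0.51, SE; limma adjusted p = 0.297), overlapping in JL0388. GAS5, a snoRNA host transcript, held 125, 71.3, 269 and 229 CPM in NLS and 157, 39.4, 242 and 90.3 CPM in NES (log2 0.49 ± 0.45, SE; limma adjusted p = 0.491). Over 41 features of the snoRNA class the median was 0.31 on the library total, but it turned to -0.23 scaled to the tags in peaks and to -0.68 with edgeR TMM, so the class has no settled direction. Limma and edgeR called 0 of them (limma 3 at an unadjusted p under 0.05), where limma called 7.53% of all features. DESeq2 called 2 lower in NLS, SNORD3A and SNORD3B-2, beside 3.24% of all features. SNORD3A, one of the near-identical U3 genes that guide ribosomal RNA processing, held 13.9, 17.8, 271 and 189 CPM in NLS and 78.4, 52.5, 429 and 163 CPM in NES, which overlap in JL1024.

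Within single genes the balance of intron to 3'UTR shifted the same way. Both classes could be measured in 535 genes, and the log2 ratio of intron to 3'UTR values was higher in NLS in 478 of them (89.3%), with a median of 1.501, or 2.11 and 0.89 with a pseudocount 4 times smaller and larger. The median was 2.43 in JL0388 and 0.64 in JL1024, and 347 genes were higher in NLS in both sets against 17 lower in both. No single gene passed (limma, 0 called, smallest adjusted p = 0.0683; 179 genes, 33.5%, at an unadjusted p under 0.05, 178 of them higher in NLS). GPC3, a hepatic proteoglycan expressed in liver cancer, held 22, 74, 44 and 30 intron tags and 3, 8, 12 and 23 3'UTR tags in NLS replicates 1 to 4. In NES it held 6, 5, 4 and 9 intron tags and 11, 9, 14 and 18 3'UTR tags, so NES had the lower ratio in each set. CTNNB1, encoding beta-catenin, held 3, 14, 11 and 5 intron tags beside 8, 17, 58 and 27 3'UTR tags in NLS, and 0, 4, 0 and 2 beside 15, 22, 58 and 37 in NES. These genes were taken from the 5 with the most tags, after their values were seen.

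Both library sets gave the same direction for introns but not for 3'UTRs. Of introns, 81.2% had the same sign in JL0388 and JL1024 and 38.7% lay apart in both sets with NLS higher, against 24.5% of all features. Of 3'UTRs, 41.1% had the same sign, and the medians were -0.78 in JL0388 and 0.40 in JL1024. Within 1 set limma called 0 features, with 1431 of 4717 at an unadjusted p under 0.05 in JL0388 and 1714 of 5459 in JL1024. All 276 features called higher in NLS were positive in both sets, a property that calling on both sets favours.

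**Figure D4:**
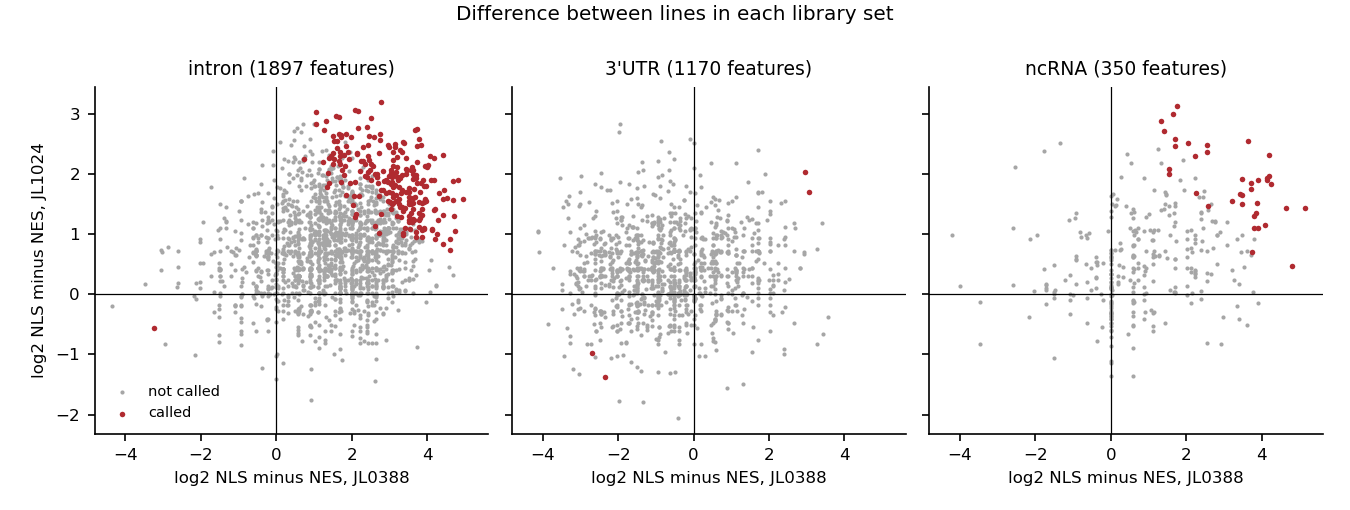
Each point is a feature, with its log2 difference (NLS minus NES, pseudocount 3.68 CPM) in JL0388 on the x axis and in JL1024 on the y axis, and red points passed the limma fit. Intron points gather in the upper right quadrant (81.2% have the same sign), whereas 3'UTR points gather at the upper left, lower in NLS in JL0388 and higher in JL1024.

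The line difference was compared with that in the inputs, which hold HuR-bound RNA of the whole cell. For the 276 features higher near NLS the input difference had a median of 0.05 and was positive in 147, beside 59.9% of all 3704 features. As a test of the difference itself, the interaction of line and capture passed for 2 of 9665 features (limma, 0.0207%). MALAT1 gained 2.43 ± 0.38 over its input difference (SE; limma adjusted p = 1.37e-06) and the ARHGAP5 introns 2.67 ± 0.56 (SE; limma adjusted p = 0.00872). The median interaction was 1.24 over introns and -0.42 over 3'UTRs of the features above. At an unadjusted p under 0.05 there were 466 (4.82%). The NES inputs held 82080 tags in peaks in JL0388 and 11110 in JL1024. Without the JL1024 NES input, or without the JL0388 NLS input, limma called 0, and edgeR and DESeq2 called 0 with all libraries.

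In mock-treated cells the captured lines differed in the same direction. The median log2 difference over the introns above was 0.71 in mock with that fit's pseudocount of 7.79 CPM. It cannot be set in size against the 1.26 after arsenite, whose pseudocount was 3.68 CPM. In direction, 272 of the 276 features were positive in mock, beside 74.7% of all 3704 features and 90.9% of all introns. In a fit of the mock libraries alone limma called 15 of 2871 features (0.522%), all higher in NLS. The interaction of line and arsenite passed for 0 of 6829 features (limma, with 279, or 4.09%, at an unadjusted p under 0.05). For this interaction edgeR called 0 and DESeq2 45. In all 45 the NLS minus NES difference was lower after arsenite than in mock. Mock NES libraries held 2981 to 5011 tags in peaks against 4837 to 21738 after arsenite.

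Nuclear and cytoplasmic fractions of arsenite-treated cells, made by lysis without capture, differed in the same direction as the lines in their intron share but ranked single features differently. Introns made up 68.8%, 71.96% and 72.5% of intron and 3'UTR tags in the nuclear fractions and 63.5%, 63.2% and 65.5% in the cytoplasmic ones, 7.02 points apart without overlap. The median difference, nuclear minus cytoplasmic, was 0.04 over the same introns, -0.40 over 3'UTRs and 3.06 over the snoRNA features, of which 37 of 41 passed as higher in the nuclear fraction (limma; 225 of the 3704 features, 6.07%, did so). GAS5 differed by 3.83 between fractions (limma adjusted p = 0.000133), whereas ARHGAP5 introns differed by 0.11 and MALAT1 by 0.04 (limma adjusted p = 0.491 and 0.878). Of the 276 features that rose near NLS, 18 passed as higher in the nuclear fraction and 8 as higher in the cytoplasmic one, where 417 of all 3704 (11.3%) did. Across introns the line difference and the fraction difference had a Spearman correlation of -0.01 (1897 introns, which are not independent), and across all features 0.25. The fraction libraries are all from another library set, JL0380, so in setting fractions beside captured libraries the method and the library set cannot be told apart.

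**Figure D5:**
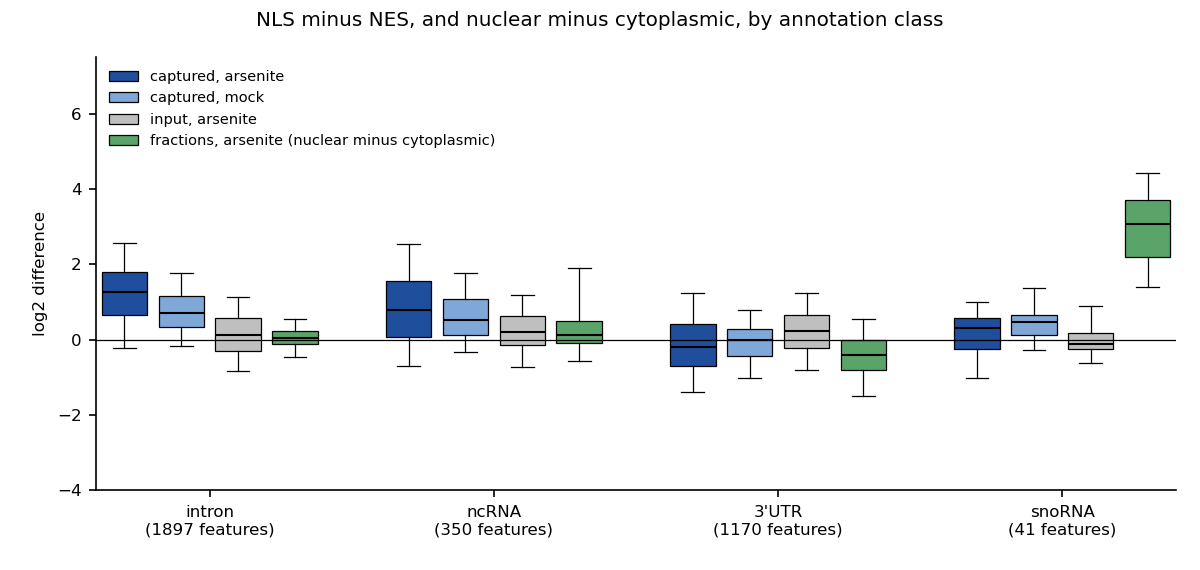
Boxes give the quartiles and median of the log2 difference over features of 4 classes, with whiskers at the 5th and 95th percentiles, for NLS minus NES in captured arsenite, captured mock and input libraries and for nuclear minus cytoplasmic fractions. The pseudocount is each fit's own (3.68 CPM for captured arsenite and input), so box widths are not comparable between contrasts. Intron medians are 1.26 and 0.71 in captured arsenite and mock libraries, 0.12 in inputs and 0.04 in fractions, and snoRNA medians are 0.31 (-0.23 if scaled to the tags in peaks), 0.46, -0.12 and 3.06.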

How the data were processed

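The authors deposited 1 table of signal per peak and library. The values themselves show what the unit is, tags divided by a total for each library, since whole tags were recovered for 100% of them (tolerance 0.01). Bowtie2, SAMtools, bedtools, HOMER and the build GRCh38.p14 are named per the submitters' processing notes, without versions or parameters; the removal of duplicate reads is not given in the sources used here. Of 395471 lines, 8257 repeated a peak and were dropped. This left 387214 peaks, each 20 nt from start to end; whether positions count from 0 or 1 is not given, so they appear unchanged. Peaks with a gene name, 70.3% of the tags in the 8 libraries, were summed per gene name and class.

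Features with a tag in at least 4 of 8 libraries were tested with limma 3.58.1 (R 4.3.3, lmFit and eBayes with a trend) on log2(CPM + 3.68), the pseudocount being the median value of 1 tag, which understates changes of low features. Library set was a covariate, tests were two-sided, and Benjamini-Hochberg adjustment ran over all features. edgeR 4.0.16 and DESeq2 1.42.0 on recovered tags were alternatives. Class shares used exact permutation within library set. Scripts were tested on simulated data. Wilson intervals and the floor of 3 tags cover counting error only, and tags may not be independent molecules, since the use of molecular identifiers is not given in the sources used here.

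The members, gene lists and tests were chosen with earlier results of these data known. Named features are the 12 per direction with lowest p whose lines lay apart in both library sets, at most 1 class a gene, the 3 highest features of each of 17 lists (given where informative), and ELAVL1, G3BP1, MALAT1, NEAT1 and ACTB. Same-numbered libraries were not paired: the correlation of their deviations was 0.0094 in JL0388 and 0.0222 in JL1024. Intron against 3'UTR ratios, the grouping of peaks by tags in fraction libraries and the scaling to mRNA and intron tags were added after seeing the data.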

Additional observations from a re-analysis of the deposited data

Results flagged for a closer look

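The interaction of line and capture singled out MALAT1 (2.43, limma adjusted p = 1.37e-06) and ARHGAP5 introns (2.67, limma adjusted p = 0.00872), whose difference between lines was larger after capture than in the inputs. Library sets moved in opposite directions, with every library of a set on the same side, in several values, and these differences between sets were not tested. The TE share differed by 1.46 points in JL0388 and -5.58 points in JL1024. The ELAVL1 3'UTR differed by -43.0 and 5.91 CPM and the G3BP1 3'UTR by -87.9 and 7.63 CPM, NLS minus NES, both on few tags. The shares of the class Other (0.909 and -1.57 points) and of 5'UTRs (-0.46 and 0.194 points) and the HNRNPU 3'UTR did so too.

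In 72 groups of 4 libraries checked for a single distant value, 9 had one, and chance gives about 1 in 20 groups. In 5 of them the other 3 libraries had no tag: POTEM, POTEJ and SERPINA1 3'UTRs at 4.46 CPM in NLS replicate 2, the CPD 3'UTR at 13.9 CPM in NLS replicate 1, and the G3BP1 intron at 2.07 CPM in NES replicate 3. The others were in NES: EIF2S3 at 131 CPM in replicate 1 (others 39.4 to 54.9), and in replicate 2 TOMM22 at 91.8 (18.6 to 28.3), the CEP112 intron at 144 (16.6 to 26.1) and the MECOM intron at 13.1 (0 to 2.07). NES replicates 1 and 2 are shallow, with 1 tag at 26.1 and 13.1 CPM, as is NLS replicate 1 at 13.9 CPM.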

How the results depend on the processing

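Against 279 features called by limma, 451 were called with a pseudocount 4 times smaller, 149 with every feature that had a tag, 117 with edgeR TMM, 120 with DESeq2, 179 with the JL0388 pairs counted once, 7 when scaled to mRNA and intron tags (2 higher and 5 lower in NLS), and 0 when scaled to the tags in peaks, without the library set, within JL0388, within JL1024 or over single peaks. With 1 library left out the count ran from 0 (any NLS library) to 392 (without NES replicate 1). With the replicate block it was 215, and among the named features the block changed the call of ACTB alone (limma adjusted p = 0.0381 against 0.0543); it could not be fitted for line and capture, whose input numbers fall in other sets. The line by arsenite interaction, 0 in the limma fit, gave 45 with DESeq2, 1 with every feature that had a tag, and 0 to 1 with 1 library left out. The line by capture interaction, 2 in the limma fit, gave 1 when scaled to mRNA and intron tags. That 1 went in the opposite direction, its NLS minus NES difference being lower after capture than in the inputs. This interaction gave 1 when scaled to the tags in peaks, per gene, over single peaks and with pairs counted once. It gave 0 with every feature that had a tag, edgeR library total, edgeR TMM, DESeq2, no library set and within either set. With 1 library left out it ran from 0 to 21. The intron share difference became -0.653 points over peaks with at least 10 tags, and the intron fraction of intron and 3'UTR tags -3.11 points. The 3'UTR share turned to 1.39 points in JL1024, the TE share to 1.46 points in JL0388 and to 1406 CPM on the library total, and the ncRNA share to -3.51 points in JL1024, -0.75 points with pairs counted once and from -0.923 to 2.18 points with 1 library left out. The 3'UTR median turned to 0.075 with every feature that had a tag and 0.50 in JL1024, and ran from -0.27 to 0.030 with 1 library left out. Within genes, 0 in the limma fit became 18 with a pseudocount 4 times larger and 2 with pairs counted once. Of the 29 features named by the limma fit or always given, none turned its direction while called. The causes were not tested. NES replicates 1 and 2 and NLS replicate 1, in which 1 tag is 26.1, 13.1 and 13.9 CPM, limit what can be seen of low features.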
